A study of Mus musculus with 9 samples.

Results

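The pancreatic acinar enzyme genes described here are 35 genes for digestive enzymes and other proteins of the acinar cells of the pancreas, picked by symbol from a table of 27719 genes counted in mouse colon. Their counts in the colitis mice treated with electroacupuncture (EA) chose them, so the values of those libraries are given as a description, with no test, and the only test of the members is that of colitis mice against control mice. Of the 35 genes, 34 were in the table and Amy2b was absent. Colon RNA of 9 C57BL/6J mice was copied to full-length cDNA, amplified by PCR and read on a Nanopore PromethION, with 1 library and 1 mouse per sample and 3 mice per group. Control mice drank distilled water. DSS mice drank 2.5% dextran sulfate sodium, a polymer that injures the colon lining, for 7 days. DSS + EA mice had the same 2.5% DSS and, after 5 days, EA for 5 days at the leg point ST36, in sessions of 30 min at 2 Hz and 0.2 mA, whereas mice of the other groups were only held for as long. Chemical injury with DSS is an acute model of ulcerative colitis, and every DSS + EA mouse also had DSS, so EA without DSS was not studied.

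Acinar cells make the bulk of the digestive enzymes of the body. They store proteases as inactive zymogens in granules, together with amylase, lipases and nucleases, and release them through the pancreatic duct into the duodenum, where enteropeptidase cuts trypsinogen and the trypsin formed cuts the other zymogens. The colon lies far downstream of that duct, and some of the genes, among them tissue kallikrein, are known to be active in gut epithelium as well.

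Library totals ran from 2627695 to 4235576 counts, and 3 counts, the limit that a count of 0 allows, correspond to 0.708 to 1.14 CPM (counts scaled to the size of the library). The 12 colon epithelium markers checked, such as the carbonic anhydrase gene Car1 with 2044 to 56170 counts, had counts in each of the 9 libraries, and 13 stomach genes checked summed to 0 to 9 counts per library. The labels do not give separate batches. Whether the members were read from fewer cells of a type or from less RNA per cell cannot be told apart in these bulk libraries.

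As a whole, the 34 genes took 0.575% ± 0.0798 (SD, n = 3) of a library's counts in control mice, 0.0324% ± 0.0306 (n = 3) in DSS mice and 3.70% ± 3.45 (n = 3) in DSS + EA mice. In single libraries the share was 0.554%, 0.663% and 0.507% in control mice 1 to 3, and 0.0670%, 0.0211% and 0.0089% in DSS mice 1 to 3. It was 0.321%, 7.22% and 3.58% in DSS + EA mice 1 to 3. The 95% Wilson interval of the largest share, in DSS + EA mouse 2, was 7.19% to 7.25%, and such intervals cover counting error only. DSS + EA mouse 1 therefore lay below the 3 control mice, and mice 2 and 3 lay above every other library.

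That sum joins members of different kinds. Of the 34 genes, 6 had at least 10 counts in a control library: the kallikrein gene Klk1, the granule gene Sycn, the colipase gene Clps, the elastase gene Cela1, the lipase-related gene Pnliprp2 and the trefoil gene Tff2. The other 28 had fewer than 10 counts in every control library. Tff2, with 10 counts at most in a control library, lay just inside this limit, and Pnliprp1 with 5 and Gp2 and Reg1 with 4 each lay just outside it. The 6 genes made up 20737, 21403 and 13314 of the members' counts in control mice 1 to 3, against 13, 6 and 17 counts for the other 28 together.

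**Figure D1:**
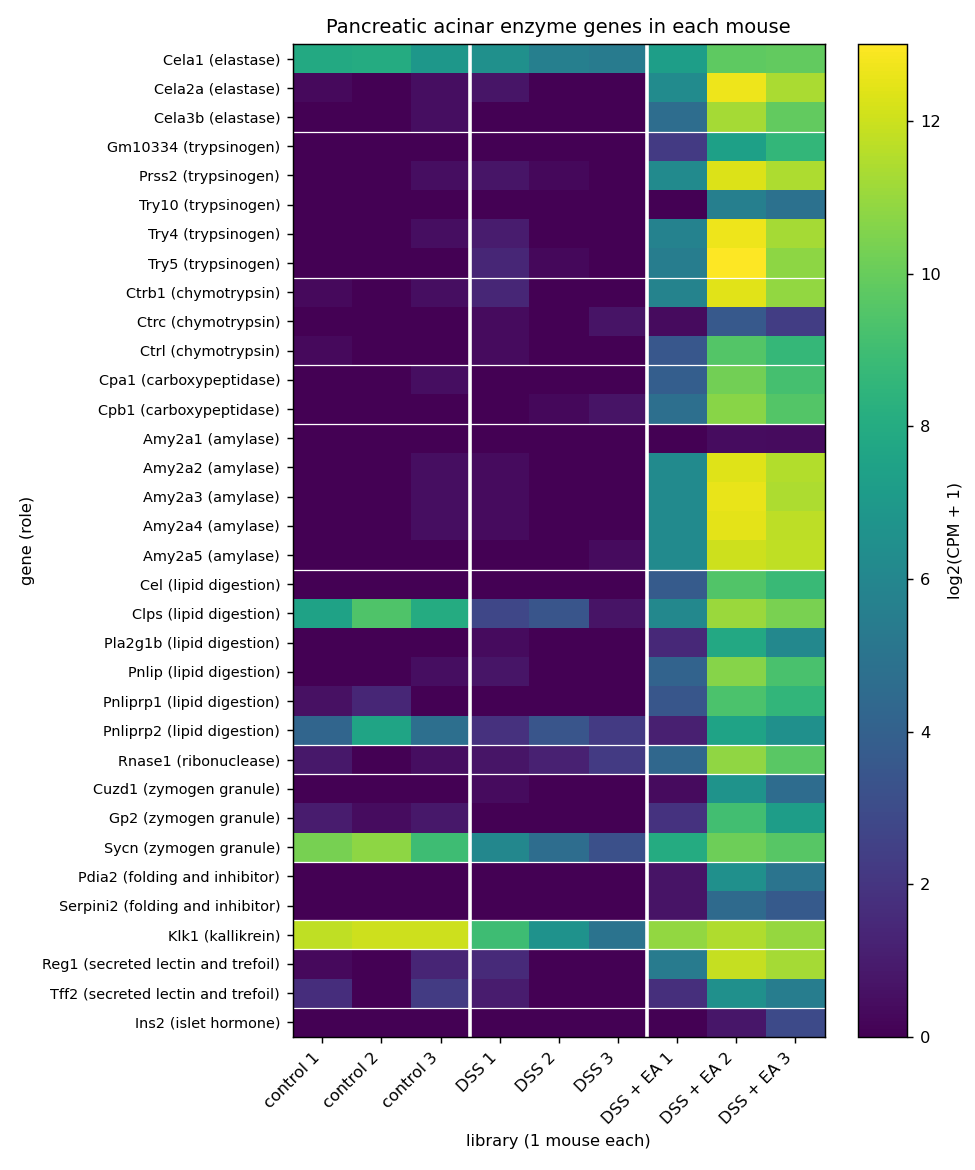
Level of each of the 34 members (rows, with the role in brackets) in each of the 9 libraries (columns, 1 mouse each), as log2(CPM + 1) in colour, with white lines between groups and between roles. Klk1, Sycn, Clps and Cela1 are bright in the 3 control mice, while the 28 other genes sum to 6 to 17 counts there and to 2601, 185683 and 101078 counts in DSS + EA mice 1 to 3.

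Klk1, Sycn and Clps were lower in DSS mice than in control mice, with no overlap between the groups. The share of all genes tested that did not overlap between these groups was not counted. Non-overlap is therefore given as a description, here and for the genes below. Klk1 (chr7:44225360-44229618, GRCm38), which encodes tissue kallikrein, a serine protease that releases kinin peptides, was the most counted member in control colon. It had 13923, 12484 and 10944 counts in control mice 1 to 3, 1586, 458 and 98 in DSS mice 1 to 3, and 6271, 7596 and 6167 in DSS + EA mice 1 to 3. Each DSS mouse was below each control mouse, and the DSS + EA mice lay between the groups without overlap with either. The mean level was 3933 CPM ± 365 (SD, n = 3) in control, 212 CPM ± 258 (n = 3) in DSS and 2219 CPM ± 518 (n = 3) in DSS + EA mice. DSS against control gave a log2 fold change of -4.21 (SE 0.84, adjusted p = 0.0035, edgeR's quasi-likelihood test with Benjamini-Hochberg adjustment over 12566 genes).

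Sycn (chr7:28540885-28542209) encodes syncollin, a protein of the inner face of the zymogen granule membrane. It had 5087, 5438 and 1325 counts in control mice 1 to 3, 203, 112 and 26 in DSS mice 1 to 3, and 854, 3021 and 2542 in DSS + EA mice 1 to 3. The DSS mice were again below all others, whereas the control and DSS + EA mice overlapped. The log2 fold change of DSS against control was -5.21 (SE 0.86, edgeR adjusted p = 0.00132).

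Clps (chr17:28558149-28560766) encodes colipase, the cofactor that anchors pancreatic lipase to fat droplets in the presence of bile salts. It had 705, 2109 and 659 counts in control mice 1 to 3, 18, 46 and 2 in DSS mice 1 to 3, and 216, 5707 and 4187 in DSS + EA mice 1 to 3. Its log2 fold change of DSS against control was -6.06 (SE 1.27, edgeR adjusted p = 0.00452), and no DSS library reached a library of another group. DSS + EA mouse 1 lay under every control mouse and mice 2 and 3 above them.

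Cela1 (chr15:100674421-100687921), a member of the elastase family of serine proteases that is known to be transcribed outside the pancreas, had 943, 787 and 309 counts in control mice 1 to 3. It had 285, 224 and 133 counts in DSS mice 1 to 3 and 511, 2357 and 3001 in DSS + EA mice 1 to 3. Control and DSS mice did not overlap, and the lowest control library, of mouse 3, was close to the highest DSS library, of mouse 1, at 118 and 91.0 CPM. The log2 fold change was -1.77 (SE 0.61, edgeR adjusted p = 0.0398). The adjusted p rose to 0.0926, 0.103, 0.123 and 0.109 without control mouse 1, control mouse 2, DSS mouse 2 and DSS mouse 3, so this call rests on each of those libraries.

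Pnliprp2 (chr19:58759719-58777534) encodes a lipase that also acts on galactolipids of plants. It had 70, 585 and 67 counts in control mice 1 to 3, 8, 46 and 12 in DSS mice 1 to 3, and 4, 502 and 291 in DSS + EA mice 1 to 3. Control and DSS mice did not overlap. Control mouse 2 stood apart from the other control mice, and the lowest of all 9 libraries was DSS + EA mouse 1. The log2 fold change of DSS against control was -3.80 (SE 1.39, edgeR adjusted p = 0.0515), and -1.97 without control mouse 2 (adjusted p = 0.263). The adjusted p was 0.0485 without control mouse 1 and 0.0135 without DSS + EA mouse 1.

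Tff2 encodes a trefoil peptide that protects mucous surfaces, best known from the stomach. It had 9, 0 and 10 counts in control mice 1 to 3, 3, 0 and 0 in DSS mice 1 to 3, and 8, 247 and 141 in DSS + EA mice 1 to 3. Control and DSS libraries overlapped (log2 fold change -2.68, SE 1.98, edgeR adjusted p = 0.303).

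**Figure D2:**
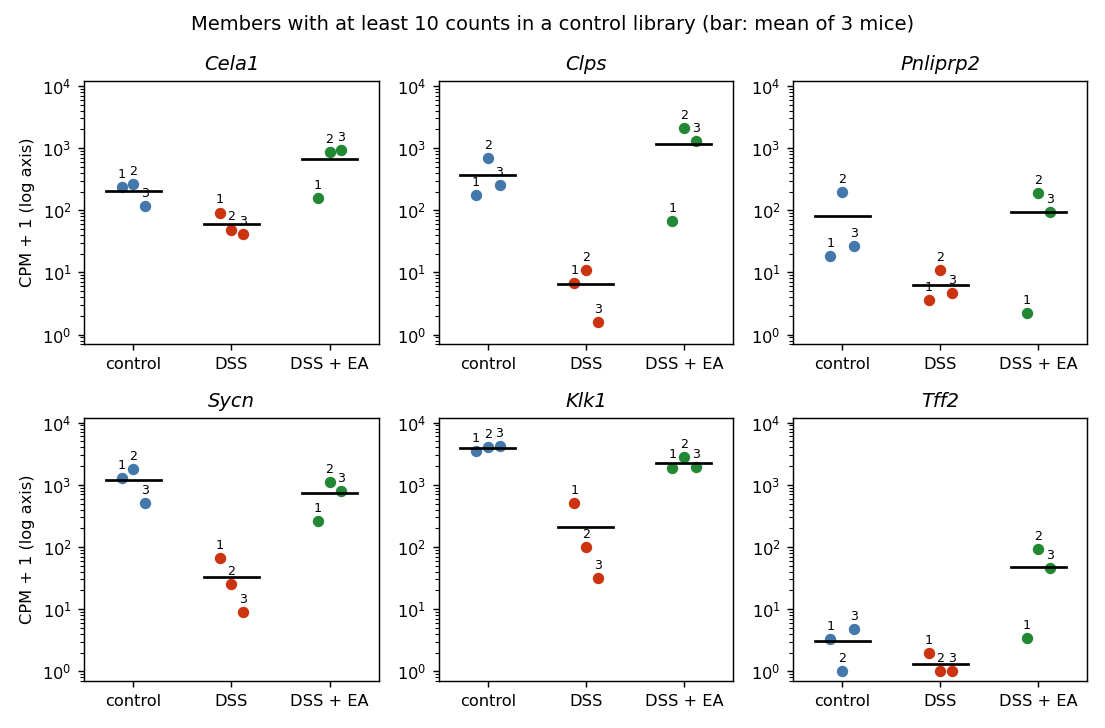
CPM + 1 (log axis) of the 6 members with at least 10 counts in a control library, with 1 point per mouse, numbered 1 to 3 within its group, and a bar at the mean of the 3 mice. Control and DSS mice overlap for Tff2, and DSS + EA mouse 1 is the lowest of its group in each panel.

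The study's thresholds were a log2 fold change beyond 2.5 and an unadjusted P under 0.01. With them, 3 of the 25 members tested (Klk1, Sycn and Clps) were called lower in DSS than in control mice. Over all 12566 genes tested, 3.57% were called lower. With an adjusted p under 0.05 the same 3 genes and Cela1 were called, 4 of the 25, beside 19.5% of all genes tested. Most of the 25 had few counts in control and DSS mice and passed the filter through DSS + EA libraries. They could hardly be called here, so the counts out of 25 and the shares of all genes are not like for like. The colon epithelium list moved with the 4 genes called. Its summed level was 8434 to 24623 CPM in control mice, 887 to 4528 CPM in DSS mice and 5729 to 12472 CPM in DSS + EA mice. Of its 11 tested genes, 8 were lower in DSS mice by adjusted p under 0.05, among them Car1, Aqp8, Muc2 and Krt20. The part of the epithelium's level in the fall of Klk1, Sycn, Clps and Cela1 was not tested.

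Of the 28 other members, 19 entered the fit, and they did so through their DSS + EA libraries. None had more than 12 counts in a control or DSS library. Their adjusted p for DSS against control ran from 0.415 to 1, and at 0 to 12 counts a difference between these groups was not detectable at this depth. In DSS + EA mice the 28 genes together had 2601, 185683 and 101078 counts in mice 1 to 3, or 0.0798%, 6.53% and 3.08% of the library. In control and DSS mice they had 13, 6, 17, 34, 9 and 17 counts. The level in DSS + EA mouse 1 was 787 CPM, which was 72.5-fold above the highest library outside the group, DSS mouse 1 with 10.9 CPM. DSS + EA mice 2 and 3 had 68849 and 31864 CPM. At least 1 count was seen for 25, 28 and 28 of the genes in DSS + EA mice 1 to 3, for 7, 2 and 13 in control mice and for 15, 4 and 4 in DSS mice.

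The trypsinogens, the zymogens of trypsin, lie in an array on chromosome 6 (GRCm38): Try4 at chr6:41302269-41305532, Try5 at chr6:41311233-41316841, Try10 at chr6:41354105-41357914, Gm10334 at chr6:41442216-41446145 and Prss2 at chr6:41521787-41525079. Their coding sequences are close enough that reads may be assigned to the wrong copy: Try4 and Try5 are 97.4% identical, Try4 and Try10 95.4%, Prss2 and Try4 91.9%, and Gm10334 and Prss2 88.8%. The first 120 coding bases of each, from the GENCODE M21 transcripts, are shown to let the copies be compared, with bases that differ from Prss2 in capitals.
Prss2: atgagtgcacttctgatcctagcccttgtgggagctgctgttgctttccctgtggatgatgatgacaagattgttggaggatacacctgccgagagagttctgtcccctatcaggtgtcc
Try4: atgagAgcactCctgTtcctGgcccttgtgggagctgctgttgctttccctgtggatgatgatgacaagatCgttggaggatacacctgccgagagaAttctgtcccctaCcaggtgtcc
Try5: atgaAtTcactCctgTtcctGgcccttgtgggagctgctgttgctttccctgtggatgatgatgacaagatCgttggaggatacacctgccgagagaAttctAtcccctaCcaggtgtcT
Try10: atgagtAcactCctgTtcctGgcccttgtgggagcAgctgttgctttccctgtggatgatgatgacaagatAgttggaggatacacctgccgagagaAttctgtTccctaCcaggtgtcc
Gm10334: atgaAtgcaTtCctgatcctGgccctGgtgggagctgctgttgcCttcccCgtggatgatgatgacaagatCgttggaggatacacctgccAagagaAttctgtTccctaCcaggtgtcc
The longest run that all 5 share, gtggatgatgatgacaagat, has 20 bases and holds the codons of the acidic stretch and lysine at which enteropeptidase cuts. From Prss2, Try4 differs at 7, Try5 at 10, Try10 at 9 and Gm10334 at 12 of the 120 positions.

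Prss2 had 241, 13882 and 8470 counts in DSS + EA mice 1 to 3, and outside that group only 1 count in control mouse 3, 2 in DSS mouse 1 and 1 in DSS mouse 2. Try4 had 179, 17610 and 7838 counts, with 1 in control mouse 3 and 3 in DSS mouse 1. Try5 had 150, 22189 and 5711 counts, with 5 in DSS mouse 1 and 1 in DSS mouse 2. These 3 genes follow the same order of the mice, and Try5 was the most counted member in DSS + EA mouse 2. Try10 had 0, 130 and 89 counts and Gm10334 12, 444 and 1243 counts, with no count for either in the 6 other libraries.

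The copies did not keep one ratio between mice 2 and 3. The CPM of mouse 2 over mouse 3 was 1.93 for Prss2 (95% exact interval 1.88 to 1.98), 2.64 for Try4 (2.57 to 2.71) and 4.57 for Try5 (4.44 to 4.71). For Try10 it was 1.72 (1.30 to 2.28), and for Gm10334 0.420 (0.376 to 0.469). Gm10334 was thus the only trypsinogen member with a higher level in mouse 3. Trypsinogen genes outside the members show both directions as well. The ratio was 0.352 (0.242 to 0.502) for Prss3, whose coding sequence is 99.1% identical to Gm10334, 0.13 (0.0699 to 0.211) for Prss1 and 0.151 (0.116 to 0.195) for Gm5771. It was 5.36 (4.14 to 7.02) for Gm2663 and 5.08 (4.32 to 5.99) for 1810009J06Rik, which are 99.5% identical. These intervals cover counting error only, and how reads shared by near-identical copies were assigned is not given in the sources used here.

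Chymotrypsinogens, which trypsin activates, followed the same order. Ctrb1 had 181, 14858 and 6078 counts in DSS + EA mice 1 to 3, and outside them 1 in control mice 1 and 3 each and 5 in DSS mouse 1. Ctrl had 35, 2001 and 1278 counts, with 1 each in control mouse 1 and DSS mouse 1. Ctrc, the chymotrypsin that also degrades trypsin, had 1, 31 and 13 counts, with 1 in DSS mouse 1 and 2 in DSS mouse 3. The annotated span of Ctrc (chr4:141814962-141846359) contains that of Cela2a (chr4:141814962-141826160) on the same strand, so the split of reads between them is uncertain.

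The elastase genes Cela2a and Cela3b encode proteases that cut after small or hydrophobic residues. Cela2a had 256, 17601 and 8226 counts in DSS + EA mice 1 to 3, the highest of the 28 in mouse 1, and 1 count each in control mice 1 and 3 and 2 in DSS mouse 1. Cela3b had 79, 6524 and 3023 counts, and 1 in control mouse 3. Cela1 differs from both in its control level and in its ratio of mouse 2 to mouse 3, 0.924 (0.875 to 0.975) against 2.52 (2.45 to 2.58) for Cela2a and 2.54 (2.43 to 2.65) for Cela3b. Carboxypeptidases trim amino acids from the end of peptides: Cpa1 had 46, 3263 and 1805 counts and 1 in control mouse 3, and Cpb1 had 85, 4414 and 2335 counts, with 1 in DSS mouse 2 and 2 in DSS mouse 3. Both were within 0.1 of the ratio of the summed levels of mouse 2 and mouse 3, which was 2.16, at 2.13 for Cpa1 and 2.22 for Cpb1.

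Pancreatic amylases, which cut starch, lie in an array on chromosome 3: Amy2a5 at chr3:113247178-113258837, Amy2a4 at chr3:113279843-113291449, Amy2a3 at chr3:113312455-113324052, Amy2a2 at chr3:113345055-113356658 and Amy2a1 at chr3:113529403-113532428. The coding sequences of Amy2a2, Amy2a3, Amy2a4 and Amy2a5 are identical over 1524 bases, and that of Amy2a1 has only 735 bases. Reads of these copies cannot be told apart by coding sequence, and 1 read may have been counted under several copies, so the split among them and their sum are uncertain. In DSS + EA mouse 1 the counts of the 4 identical copies were nearly equal, 246 for Amy2a2, Amy2a3 and Amy2a5 and 248 for Amy2a4.

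In DSS + EA mouse 2 the copies had 14461 (Amy2a2), 16253 (Amy2a3), 15135 (Amy2a4) and 11349 (Amy2a5) counts. In mouse 3 they had 9109, 8542, 10491 and 10935 counts in the same order. The copies thus changed rank between these mice: Amy2a5 was the lowest in mouse 2 and the highest in mouse 3. In control mouse 3 and DSS mouse 1, Amy2a2, Amy2a3 and Amy2a4 had 1 count each, Amy2a5 had 1 in DSS mouse 3, and Amy2a1 had 0, 1 and 1 counts in DSS + EA mice 1 to 3 and none elsewhere.

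Genes for lipid digestion include Pnlip, the main triglyceride lipase, with 56, 4325 and 1966 counts in DSS + EA mice 1 to 3, 1 in control mouse 3 and 2 in DSS mouse 1. Cel, the bile salt-activated lipase, had 40, 1904 and 1407 counts and none in the 6 other libraries. Pnliprp1, a lipase relative with little activity of its own, had 33, 1731 and 1192 counts, with 2 in control mouse 1 and 5 in control mouse 2. For each of these genes mouse 2 was highest and mouse 1 lowest. Pla2g1b, the pancreatic phospholipase, had 6, 616 and 208 counts and 1 in DSS mouse 1.

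Rnase1, the secreted ribonuclease, had 65, 4965 and 2625 counts in DSS + EA mice 1 to 3, and 3, 0, 1, 2, 6 and 12 counts in control mice 1 to 3 and DSS mice 1 to 3. Reg1, a small secreted lectin, had 136, 9954 and 7783 counts, with 1, 0 and 4 in control mice and 6, 0 and 0 in DSS mice. Of the 28 genes, only Reg1 and Rnase1 had more than 5 counts in a control or DSS library. Gp2, the main glycoprotein of the granule membrane, which M cells of the gut also carry, had 9, 1456 and 479 counts, with 4, 1 and 2 in control mice and none in DSS mice. Cuzd1, another granule protein, had 1, 277 and 73 counts and 1 in DSS mouse 1. Pdia2, a protein disulfide isomerase of the acinar secretory pathway, had 2, 249 and 100 counts, and the protease inhibitor Serpini2 had 2, 58 and 37, with none for either outside DSS + EA mice. Gp2 and Cuzd1 had larger ratios of mouse 2 to mouse 3, 3.58 (3.22 to 3.97) and 4.46 (3.44 to 5.86), than most enzymes. The granule gene Sycn did not share this, at 1.40 (1.33 to 1.47). Ins2, an insulin gene of islet beta cells and no acinar gene, had 0, 2 and 21 counts in DSS + EA mice 1 to 3 and none elsewhere.

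On a scale of CPM per kb of coding sequence, the highest member in DSS + EA mouse 2 was Try5 (11148). It was followed by Try4 (8848), Cela2a (8027), Reg1 (7456), Ctrb1 (6982), Prss2 (6975) and Clps (6242). Klk1, the most counted member in control colon, was at 3597 on this scale in that mouse. A single mouse gives no spread, so neighbours in this order are not separated. For cDNA reads of full length the division by length may overcorrect, and the order depends on it. By CPM alone, Amy2a3 (6026), Amy2a4 (5612) and Amy2a2 (5362) lay above Reg1 (3691) and Clps (2116) in that mouse, with the split among amylase copies uncertain.

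The most counted roles took similar shares of the 28 genes in the 3 DSS + EA mice, although the totals differed by up to 87.5-fold in CPM. Amylases took 37.9%, 30.8% and 38.7% of the counts of the 28 genes in mice 1 to 3, and trypsinogens 22.4%, 29.2% and 23.1%. Elastases took 12.9%, 13.0% and 11.1%, chymotrypsins 8.34%, 9.10% and 7.29%, and carboxypeptidases 5.04%, 4.13% and 4.10%. Lipid digestion genes took 5.19%, 4.62% and 4.72%, Rnase1 2.50%, 2.67% and 2.60%, and Reg1 5.23%, 5.36% and 7.70%. Little counted roles varied more: Gp2 and Cuzd1 together took 0.384%, 0.933% and 0.546%, and Ins2 0%, 0.0011% and 0.0208%. Across the 28 genes, Pearson's r of log2(CPM + 1) was 0.930 between mice 1 and 2, 0.957 between mice 1 and 3 and 0.970 between mice 2 and 3. With all 34 genes it was 0.821, 0.871 and 0.969. These values are across genes, which are not independent replicates, and the identical amylase copies may share reads.

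**Figure D3:**
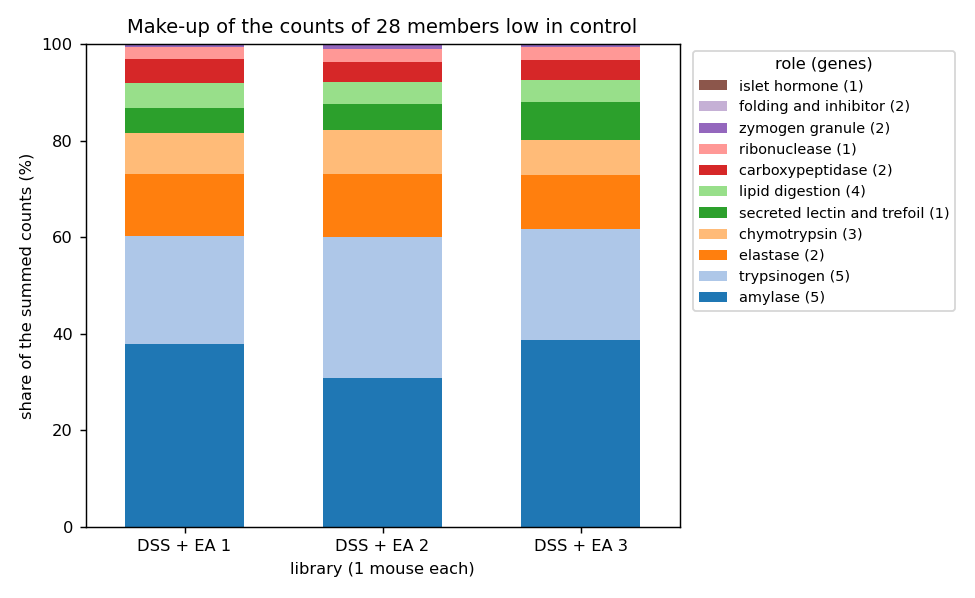
Share (%) of each role in the summed counts of the 28 members with fewer than 10 counts in every control library, in the 3 DSS + EA libraries (1 bar per mouse, number of genes in brackets). Amylases and trypsinogens lead in each bar, with 37.9% and 22.4% in mouse 1, 30.8% and 29.2% in mouse 2 and 38.7% and 23.1% in mouse 3.

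All 34 members were lowest in DSS + EA mouse 1 among the mice of that group. Over the 28 genes the ratio of mouse 2 to mouse 3 had a median of 2.17 and ran from 0.112 (Ins2) to 4.57 (Try5), with 26 genes higher in mouse 2 and Gm10334 and Ins2 higher in mouse 3. The ratio of mouse 2 to mouse 1 had a median of 84.3 over the 25 genes counted in mouse 1, from 35.5 to 339. Among the 6 members counted in control colon, the ratio of mouse 2 to mouse 1 was 1.48 for Klk1, 4.33 for Sycn and 5.65 for Cela1. It was 32.4 for Clps, 37.8 for Tff2 and 154 for Pnliprp2. Klk1, Sycn and Cela1 were thus far under the lowest of the 25 genes, Clps was just under it, and Tff2 and Pnliprp2 were within their range.

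**Figure D4:**
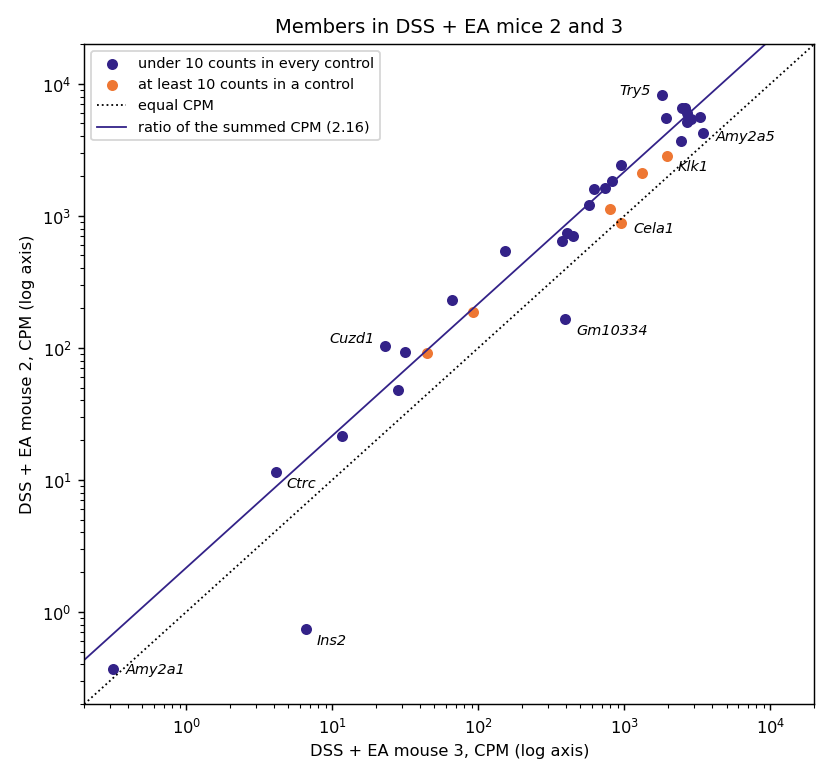
CPM of each member in DSS + EA mouse 3 (x, log axis) and mouse 2 (y, log axis), 1 point per gene, coloured by whether it had at least 10 counts in a control library, with a dotted line at equal levels and a solid line at 2.16, the ratio of the summed CPM of the 28 other genes. Most points lie near the solid line, while Gm10334, Ins2 and Cela1 lie below the dotted line.

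Of the 34 members, 28 had a promoter entry in RefSeq (GRCm38.p6), and Clps, Ctrc, Ins2, Tff2, Try10 and Try5 had none. The 250 bases upstream of the start were searched on both strands for the E-box form CACCTG, which reads CAGGTG on the opposite strand and which acinar factors of the basic helix-loop-helix class can bind. They were also searched for TTTCCC, the TC-box of acinar enhancers, which reads GGGAAA on the opposite strand, and on the strand of the gene for TATAAA. The E-box form was in 13 of 28 member windows (46.4%) and in 17.2% of all 32851 windows, the TC-box in 7 (25%) and 21.9%, and the TATA letters in 8 (28.6%) and 7.59%. Both the E-box form and the TC-box were in 4 member windows (14.3%), those of Cel, Cela2a, Prss2 and Cela1, and in 3.61% of all windows. The last 150 upstream bases of 3 of these genes are shown, from genes with little count in control colon (Prss2, Cel) and a gene counted there (Cela1), with the motifs in capitals. The E-box form of Prss2 lies further upstream than the bases shown.
Prss2, chr6:41521626-41521775, plus strand: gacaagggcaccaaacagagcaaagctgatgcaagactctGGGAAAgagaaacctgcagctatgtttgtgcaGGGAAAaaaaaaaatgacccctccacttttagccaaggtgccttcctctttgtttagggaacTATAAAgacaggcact
Cel, chr2:28563404-28563553, minus strand: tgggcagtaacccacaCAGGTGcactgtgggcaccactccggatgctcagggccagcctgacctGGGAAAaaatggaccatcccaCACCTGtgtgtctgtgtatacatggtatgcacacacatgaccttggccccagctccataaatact
Cela1, chr15:100687921-100688070, minus strand: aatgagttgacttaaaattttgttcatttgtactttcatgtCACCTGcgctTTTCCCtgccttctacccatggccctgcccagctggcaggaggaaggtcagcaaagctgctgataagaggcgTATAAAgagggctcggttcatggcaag
The windows of Amy2a2, Amy2a3 and Amy2a4 are the same in all 250 bases and hold none of these motifs. They are thus not independent windows, and they add to the windows searched and not to the matches. A match is a description of the sequence, and binding was not measured.

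A list of 25 further acinar genes that are no members was read beside them, chosen with earlier results of these data known. Of these, 22 were in the table and 6 passed the filter on low counts, with 5 higher and 0 lower in DSS + EA than in DSS mice by the study's thresholds, where 2.91% of all genes tested were called higher and 3.5% lower. By adjusted p the 5 were called as well, beside 17.2% of all genes called higher and 18.3% lower. Among the 5, the trypsinogen gene 2210010C04Rik had no count in control or DSS mice and 68, 4797 and 1620 in DSS + EA mice 1 to 3. It shares the order of mice 2, 3 and 1 with most of the members. Tmed6, a cargo transport gene, had 10, 11 and 10 counts in control, 4, 2 and 2 in DSS and 12, 71 and 33 in DSS + EA mice.

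Spink1, the pancreatic trypsin inhibitor, and Zg16, a lectin of zymogen granules and of goblet cell mucus, did not share that order. Spink1 had 4060, 4458 and 1615 counts in control mice, 1474, 1729 and 231 in DSS and 7213, 4092 and 6003 in DSS + EA mice 1 to 3. Zg16 had 15433, 11324 and 10129 counts in control, 4981, 4455 and 873 in DSS and 19334, 17513 and 19002 in DSS + EA mice. The log2 fold changes of DSS + EA against DSS were 2.61 (SE 0.59) for Spink1 and 2.70 (SE 0.50) for Zg16, with edgeR adjusted p of 0.00829 and 0.00341. Of the transcription factors on the list, Ptf1a had no count in any library, and Gata4 had at most 3. Rbpjl had 0, 5 and 1 counts in DSS + EA mice 1 to 3 and 1 in DSS mouse 2. Bhlha15 had 4, 8 and 5 in control mice, 1 in DSS mouse 1 and 1, 1 and 3 in DSS + EA mice. Nr5a2 had 33, 14 and 16 counts in control, 11, 20 and 0 in DSS and 19, 16 and 10 in DSS + EA mice. It passed the filter and was not called for DSS + EA against DSS (log2 fold change 0.86, SE 0.71, edgeR adjusted p = 0.366). The summed level of the list was 4489 to 5218 CPM in control, 345 to 2073 CPM in DSS and 8073 to 11049 CPM in DSS + EA mice, most of it from Zg16 and Spink1. The count of 5 was 10, 11 and 11 without control mice 1, 2 and 3, and 6, 5 and 4 without DSS mice 1, 2 and 3. It was 13 without DSS + EA mouse 1, and 15 genes were tested in each of these fits. The filter was rerun in each, and genes such as 1810009J06Rik and Prss3, with no count in control or DSS mice, then entered. They passed it only through their DSS + EA counts, so the larger counts do not show an effect of the mouse left out. Without DSS mouse 3, Spink1 and Zg16 were no longer called by the study's thresholds, and without DSS + EA mouse 1 Spink1 was not.

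Markers of other organs were read in the same way. Of the 14 islet genes, 7 were tested and none passed the study's thresholds for DSS + EA against DSS in edgeR or DESeq2, with 3 at an unadjusted p under 0.05 in edgeR, while by adjusted p Gcg was higher and Sst and Pcsk2 were lower. Ins1 had 0, 1 and 2 counts in DSS + EA mice and none elsewhere, and Mafa, Nkx6-1, G6pc2 and Slc2a2 had at most 1 count in any library. The islet list summed to 280 to 512 CPM in control, 237 to 524 CPM in DSS and 317 to 399 CPM in DSS + EA mice, and the hormone and granin genes that make up most of it are also known from enteroendocrine cells of the gut. Of 9 duct genes, 8 were tested: Spp1 was lower by the study's thresholds, and Muc1 and Cftr were higher by adjusted p only. The duct list ran from 1455 to 1676 CPM in control, 315 to 1450 CPM in DSS and 1210 to 1556 CPM in DSS + EA mice.

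Of 11 small intestine genes, 6 were tested, and Alpi and Fabp6 were higher by the study's thresholds, with Rbp2 added by adjusted p. Fabp6, the bile acid binding protein of the ileum, had 33, 15 and 36 counts in control, 42, 12 and 14 in DSS and 253, 412 and 87 in DSS + EA mice 1 to 3, another order of the mice than that of the 28 members. The small intestine list ran from 1316 to 2311 CPM in control, 28.7 to 238 CPM in DSS and 462 to 923 CPM in DSS + EA mice. Of 10 genes of mesenteric fat, 8 were tested: Car3 was higher by the study's thresholds, and by adjusted p Cidec was higher and Fabp4 lower. The fat list ran from 115 to 397 CPM in control, 160 to 225 CPM in DSS and 160 to 195 CPM in DSS + EA mice. Of 11 colon genes tested, Aqp8 was higher by the study's thresholds, and Vil1, Krt20, Slc26a3 and Car1 were among those higher by adjusted p only. In the stomach list no gene was tested, at 0 to 2.84 CPM in sum. The part of the cells these lists mark in the members' counts was not tested.

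Among 12806 genes with a symbol and at least 30 counts over the 9 libraries, those most like the summed CPM of the 34 members on the log2 scale were Mrpl54 (r = 0.989 over 9 libraries), Polr1c (0.977), Mycbp (0.968), Cby1 (0.966), Acly (0.959), Abhd10 (0.957), Zscan21 (0.954), Gm20449 (0.953), Dnajc11 (0.953) and Eif2d (0.951). Mrpl54, a gene of the mitochondrial ribosome, had 291 to 426 counts in control mice and 238 to 383 in DSS mice, a narrow range beside that of the sum. The sum over all members is led by Klk1 and Sycn in the 3 control libraries, by Klk1 and Cela1 in DSS mice 1 and 2, and by Cela1 and Klk1 in DSS mouse 3. Against the sum of the 28 genes, a measure chosen after seeing the data, the leading genes were Reg2 (0.990), 2210010C04Rik (0.990) and Reg3a (0.981), followed by Ankfy1 (0.972) and Reg3d (0.959). Reg2, a lectin gene of the same family as Reg1, had 190, 11179 and 7022 counts in DSS + EA mice 1 to 3 and 2 counts elsewhere, in control mouse 2.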

How the data were processed

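RNA from the colon of 3 control, 3 DSS and 3 DSS + EA mice was sequenced as full-length cDNA. The authors deposited a table of raw read counts per gene, which per the file header has 1 column per mouse. The submitters' processing notes name mm10, and the aligner, the counting tool, its use of strand and its treatment of reads shared between genes are not given in the sources used here. Of 27733 lines, 14 without counts were left out. Members and gene lists were chosen with earlier results of these data known.

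The counts were tested with edgeR (4.0.16, R 4.3.3), with TMM normalization, filterByExpr by group (12566 genes kept), a prior count of 0.125 and 1 quasi-likelihood fit of group over the 9 libraries. Calls used the thresholds of the study (log2 fold change beyond 2.5, P under 0.01) or an adjusted p under 0.05 (Benjamini-Hochberg). CPM are counts over TMM-scaled library totals. Fits were tested on simulated data. Ratios of mice have exact binomial intervals and shares Wilson intervals, at 95%. Members with at least 30 counts in a library were given by mouse, with the 10 other genes most correlated with the members' sum and the marker genes past either rule, of which some are not reported here. Alternatives were RLE factors, unscaled totals, DESeq2 1.42.0, no filter, 2 groups only, the replicate number as a block and leaving out each mouse. Positions and coding sequences came from GENCODE M21 (GRCm38), promoters from RefSeq, and identities from edlib 1.3.9.post1. Mice are separate animals, with 3 per group, and the p-values refer to the spread between animals within groups. That spread was estimated over all 9 libraries, so the DSS + EA mice enter it for DSS against control as well.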

Additional observations from a re-analysis of the deposited data

How the results depend on the processing

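Sycn and Clps kept their direction in DSS against control mice and an adjusted p under 0.05 in 15 of 15 alternatives, and Klk1 in the 14 that gave it an adjusted p. DESeq2 gave none for Klk1, which is therefore not among the members it called, while Pnliprp2 is. The number of members called by the study's thresholds was 3 to 4 when each mouse was left out in turn, and by adjusted p 3 to 5. With only control and DSS mice in the fit, 5 members were tested. Of these, 4 were called by the study's thresholds and 5 by adjusted p. Pnliprp2 was then at -3.80 (edgeR adjusted p = 0.0214). Log2 fold changes over the alternatives ran from -5.95 to -3.70 for Klk1, -6.21 to -4.75 for Sycn, -6.86 to -5.29 for Clps, -2.22 to -1.56 for Cela1 (10 of 15 past the threshold), -4.62 to -1.97 for Pnliprp2 (7 of 15) and -5.76 to -1.97 for Tff2 (0 of 14). The number of further acinar genes called for DSS + EA against DSS was 5, 11 with DESeq2, 14 without a filter on low counts, which tested 21 genes in place of 6, and 4 to 13 without single mice. For the lists of other tissues it was 5, and 3 to 12 without single mice, with 12 without DSS mouse 1 and 3 without DSS + EA mouse 1. The share of all genes called was counted for the main fit only. The numbers called under the alternatives, for members and for lists, therefore have no share beside them and are given as a description. Acinar genes tested only under an alternative had few counts outside DSS + EA mice. The mean share of the members in control libraries was 0.575%, 0.183% without Klk1, 0.000393% without the 6 genes counted in control, and 0.531% to 0.609% without single mice. In DSS libraries it was 0.0324%, 0.000602% without those 6 genes and 0.0150% to 0.0441% without single mice, and in DSS + EA libraries 3.70%, and 1.95% without mouse 2 to 5.40% without mouse 1. The likeness of DSS + EA mice 1 and 2, r = 0.821, was 0.930 without the 6 genes, and that of mice 1 and 3, r = 0.871, was 0.957. Depth limits the 28 other genes in control and DSS libraries, where a count of 0 allows up to 1.14 CPM.

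Groups share replicate numbers, but the mice are different animals. Same-numbered mice did not deviate together: r ran from -0.160 to 0.105 over 9 pairs, with 1 pair over 0.1. With the replicate block, 4 members were called by the study's thresholds and 4 by adjusted p, with Pnliprp2 at -3.60 (adjusted p = 0.0214) and Cela1 at -1.73 (adjusted p = 0.0756). The block gave 5 further acinar genes and 6 genes of other tissues.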

Other observations

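Counts that lie in DSS + EA mice 2 and 3 extend beyond the members. When genes were picked, with their values known, for no more than 10 counts in any control or DSS library, 30 counts or more in DSS + EA mouse 2 and at least 8 times the count of mouse 1, 49 genes were found and 26 of them are members. The members were themselves chosen for counts in DSS + EA libraries, so their number in this set is no result. The rule sets no minimum in mouse 3. Among the 23 others, the elastase gene Cela3a had 0, 73 and 24 counts in DSS + EA mice 1 to 3, the cholecystokinin receptor gene Cckar 4, 32 and 23, and Erp27, a chaperone gene of the endoplasmic reticulum, 2, 42 and 42. The lectin genes Reg3a and Reg3d had 47, 1397 and 2214 and 5, 261 and 281 counts, and Reg3a was thus higher in mouse 3 than in mouse 2, unlike most members.

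The set also holds genes that were counted in mouse 2 and hardly in mouse 3: 8 of the 23 others had 0 or 1 counts in DSS + EA mouse 3. The alpha-defensin genes of Paneth cells, which are cells of the small intestine, are among them. Defa24 had 1, 103 and 0 counts in DSS + EA mice 1 to 3, Defa3 1, 49 and 0, Defa30 0, 41 and 1, and Defa22 0, 32 and 0. The cause was not tested.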
